A study of Mus musculus with 14 samples.

Results

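The 48 genes described here encode the subunits of the mouse proteasome, its regulators and its dedicated assembly factors. They are all protein-coding genes whose symbol is Psm followed by a letter from a to g and a number, without pseudogenes, and they were found among 46078 gene identifiers of a bulk RNA-seq table of 14 libraries. The libraries came from lymphocytes sorted from the bone marrow of C57BL/6 mice aged 8 weeks, with 2000 cells sorted per sample. Immature type 1 innate lymphoid cells (iILC1; CD3-, NK1.1+, IL-7Ra+ and CD49a+) and immature natural killer cells (iNK; CD3-, NK1.1+, IL-7Ra-, DX5+, CD11b- and CD27+) were taken from mice of the genotype Vav-Cre;Il-15-flox/KO (called cKO here) and from mice of the genotype Il-15-flox/KO (called control here). There were 4 cKO iILC1, 3 control iILC1, 4 cKO iNK and 3 control iNK libraries. Every mouse, controls included, carried 1 floxed and 1 knockout allele of Il15, the gene of the cytokine interleukin 15. The Vav promoter drives Cre in blood cells, so cells outside the blood lineages are not its target. Nothing in the labels ties the libraries of a group to different mice, so p-values measure the spread between these samples, which may be technical.

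The proteasome is the barrel-shaped protease that degrades proteins tagged with ubiquitin. Its core particle (20S) stacks rings of alpha subunits, which form the gate, on rings of beta subunits, of which only Psmb5, Psmb6 and Psmb7 are catalytic in most cells. The 19S regulator binds ubiquitin chains, removes them and unfolds the substrate with a ring of ATPases. Lymphocytes, and other cells exposed to interferon gamma, replace the catalytic subunits by Psmb8, Psmb9 and Psmb10, which gives the immunoproteasome. It is known for cutting peptides that fit MHC class I molecules, and natural killer cells read MHC class I on other cells.

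The 48 members fell into 14 standard core genes (7 alpha and 7 beta), the 3 immunoproteasome genes, 2 tissue-restricted core genes, 20 genes of the 19S regulator (6 ATPases, 11 non-ATPase subunits and 3 assembly chaperones), 4 activators, 1 inhibitor and 4 assembly chaperones of the core. Members were matched by gene identifier, and all 48 passed the filter on low counts that left 26990 genes for testing. Of the members, 40 had a mean of at least 50 CPM (counts scaled to library size with TMM factors) and 8 were below it. Comparisons used the quasi-likelihood F test of edgeR in 1 fit of all libraries, and a gene was called at an adjusted p below 0.05 over all 26990 genes.

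Total counts were 5478641 to 10308693 in cKO iILC1, 3512796 to 4933284 in control iILC1, 6254844 to 12572326 in cKO iNK and 6238016 to 8013984 in control iNK libraries. The sums of the marker genes followed the labelled cell types, with 1 gene against them. The 6 NK cell markers summed to 361 to 542 CPM in cKO iILC1 and 535 to 814 CPM in control iILC1, against 1937 to 2717 CPM in cKO iNK and 2467 to 4181 CPM in control iNK. The 6 ILC1 markers summed to 1748 to 2926, 1083 to 1705, 796 to 1168 and 461 to 816 CPM in the same 4 groups. The ILC1 marker Tcf7 ran against the labels, with means of 437 CPM in cKO iILC1 and 363 CPM in control iILC1, against 908 CPM in cKO iNK and 601 CPM in control iNK, and it made up most of the iNK sums. Several of these markers encode proteins of the sort gates. Il15 was at 11.2 to 24.95 CPM in cKO iILC1, 11.7 to 13.7 in control iILC1, 8.58 to 12.3 in cKO iNK and 8.16 to 11.1 in control iNK. A count over the whole gene does not resolve the floxed part and checks neither the deletion nor the labels. Genes of odour and pheromone receptors, which should be silent in lymphocytes, were summed as a measure of background reads, in CPM without TMM factors. These 1465 genes took 1353 to 3593 CPM in cKO iILC1, 2230 to 3981 in control iILC1, 1677 to 3187 in cKO iNK and 1179 to 2640 in control iNK. The libraries cKO iILC1 replicate 1 and control iNK replicate 1 had the lowest background and the lowest scores on the first principal component of all 14.

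Proteasome transcripts were abundant in all groups, and they were highest in control iNK. Summed over the 48 members they took 0.607 ± 0.0816% of all TPM (counts per exon length, scaled to a fixed total in each library) in cKO iILC1 (SD, n = 4), 0.567 ± 0.0442% in control iILC1 (n = 3), 0.662 ± 0.0600% in cKO iNK (n = 4) and 0.751 ± 0.0163% in control iNK (n = 3). Leaving aside the 2 tissue-restricted genes, 44 of the other 46 members had their highest mean CPM in control iNK. The 2 exceptions were Psmf1, highest in cKO iILC1, and Psmg3, highest in cKO iNK. The lowest mean was in control iILC1 for 37 members, in cKO iILC1 for 6 and in cKO iNK for 3. Well expressed genes leaned the same way in general. Of all genes with at least 50 CPM, 89.7% had estimates lower in control iILC1 than in control iNK. For cKO iNK against control iNK the share was 78.7%. The share of all genes with their highest mean in control iNK was not computed. These are bulk values, in which fewer cells of a type and less RNA per cell cannot be told apart.

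**Figure D1:**
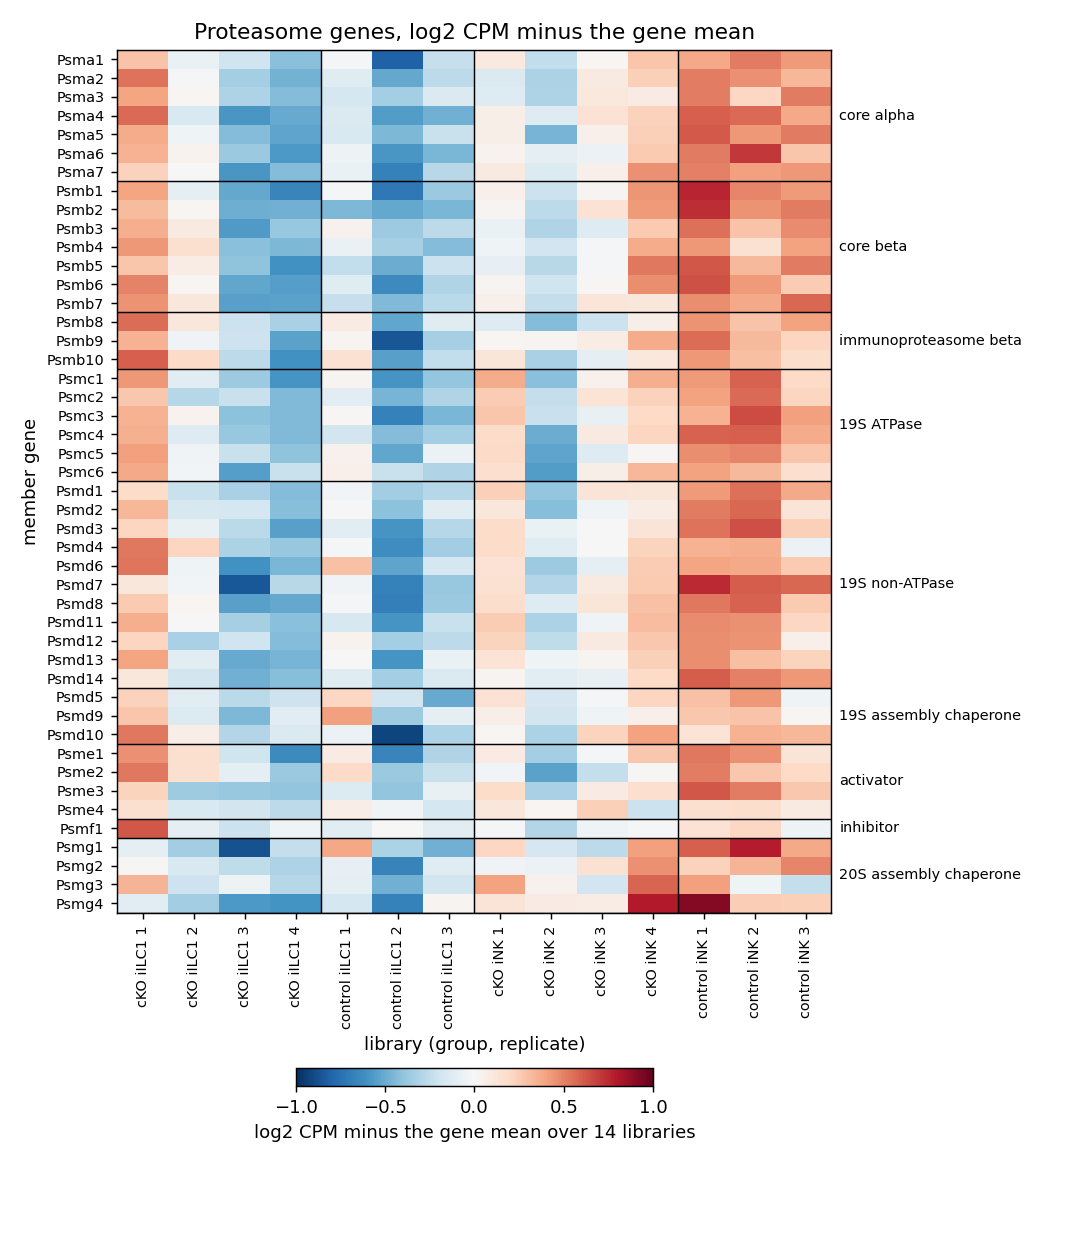
Heat map of 46 members (rows, by class) in the 14 libraries (columns, by group and replicate); colour gives log2 CPM minus the gene's mean over all libraries, limited to the range from -1 to 1, and Psma8 and Psmb11 are left out for their low counts. The 3 control iNK columns are red for nearly all rows, and cKO iILC1 replicate 1 is red for most rows. Most rows are blue in cKO iILC1 replicates 3 and 4 and in control iILC1 replicates 2 and 3. The other iILC1 columns lie nearer the gene means.

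Levels per length spanned a wide range among the members. Psma2, an alpha ring subunit, had the highest mean over all libraries (515 TPM), followed by Psmb1 (359.9 TPM), the immunoproteasome gene Psmb10 (327 TPM), Psma6 (304 TPM) and the activator Psme1 (274 TPM). The order depends on the exon length in the table: Psma3, also of the alpha ring, averaged 108 TPM with 3894 bases of exon against 944 for Psma2, while in control iNK both had similar CPM (224 and 261 CPM). The non-ATPase subunits of the regulator were generally lower, and the assembly chaperones Psmd9 (11.3 TPM) and Psmg3 (15.4 TPM) were the lowest of the members other than the tissue-restricted genes.

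Leaving aside the tissue-restricted genes, the summed levels of most classes were likewise highest in control iNK. The assembly chaperones of the regulator were highest in cKO iNK instead, with means of 108 TPM against 106 TPM in control iNK. The inhibitor Psmf1 was highest in cKO iILC1, with 29.2 TPM against 25.2 TPM in control iNK. The core chaperones hardly differed between cKO iNK (220 TPM) and control iNK (222 TPM). The 7 alpha genes summed to 1474 ± 214 TPM in cKO iILC1, 1340.4 ± 86.2 TPM in control iILC1, 1593 ± 131 TPM in cKO iNK and 1864 ± 13.2 TPM in control iNK (SD, n = 4, 3, 4 and 3). The 7 standard beta genes summed to 1268 ± 221 TPM in cKO iILC1, 1165 ± 52.9 TPM in control iILC1, 1449 ± 196 TPM in cKO iNK and 1687 ± 146 TPM in control iNK. The 3 immunoproteasome genes summed to 631 ± 112 TPM in cKO iILC1, 569 ± 82.5 TPM in control iILC1, 606 ± 42.8 TPM in cKO iNK and 679 ± 33.6 TPM in control iNK. The immunoproteasome genes made up 10.4 ± 0.610% of the members' TPM in cKO iILC1 and 10.0 ± 0.691% in control iILC1, against 9.18 ± 0.336% in cKO iNK and 9.03 ± 0.287% in control iNK. The 6 ATPases of the regulator summed to 707 ± 85.9 TPM in cKO iILC1, 671 ± 59.3 TPM in control iILC1, 777 ± 118 TPM in cKO iNK and 870.2 ± 45.4 TPM in control iNK. Its 11 non-ATPase subunits summed to 1030.1 ± 113, 1007 ± 87.5, 1174 ± 87.9 and 1304 ± 62.5 TPM in those groups.

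The catalytic subunits come in pairs, in which the inducible gene takes the place of the constitutive one. Psmb8 (chr17:34197721-34201454 on mm10) replaces the chymotrypsin-like subunit Psmb5 (chr14:54614120-54617995), Psmb9 (chr17:34181988-34187764) replaces the caspase-like subunit Psmb6 (chr11:70525367-70527858), and Psmb10 (chr8:105935728-105938392) replaces the trypsin-like subunit Psmb7 (chr2:38588036-38644087). Psmb8 and Psmb9 lie side by side in the MHC class II region of chromosome 17, next to the peptide transporter gene Tap1. Exons of Psmb9 and Tap1 overlap by 212 bases (5.79% of the Psmb9 exons) in the GENCODE M21 annotation, and those of Psmb8 overlap an antisense gene by 186 bases (6.80%). The library kits do not mark strand, so reads in these stretches cannot be assigned to 1 gene.

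The upstream sequence of a few of these genes is shown to set the inducible Psmb10 beside the constitutive Psmb5 and Psmb6 and beside Psmc4, a 19S ATPase gene called in the comparison of cell types. The stretches are from RefSeq (GRCm38.p6), read 5′ to 3′ on the strand of the gene and kept clear of annotated exons. They lie at chr8:105938445-105938642 (minus strand), chr14:54618023-54618245 (minus strand), chr11:70525107-70525356 (plus strand) and chr7:28050102-28050342 (minus strand), for Psmb10, Psmb5, Psmb6 and Psmc4. Capitals mark matches, on either strand, to any of 6 motifs searched.
Psmb10: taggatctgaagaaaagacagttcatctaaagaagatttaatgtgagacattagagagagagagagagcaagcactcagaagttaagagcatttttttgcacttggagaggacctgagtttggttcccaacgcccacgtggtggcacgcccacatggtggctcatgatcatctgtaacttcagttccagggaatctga
Psmb5: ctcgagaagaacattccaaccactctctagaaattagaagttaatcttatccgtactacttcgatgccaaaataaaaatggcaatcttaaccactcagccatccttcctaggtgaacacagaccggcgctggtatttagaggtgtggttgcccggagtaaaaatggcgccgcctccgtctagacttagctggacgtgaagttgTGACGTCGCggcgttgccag
Psmb6: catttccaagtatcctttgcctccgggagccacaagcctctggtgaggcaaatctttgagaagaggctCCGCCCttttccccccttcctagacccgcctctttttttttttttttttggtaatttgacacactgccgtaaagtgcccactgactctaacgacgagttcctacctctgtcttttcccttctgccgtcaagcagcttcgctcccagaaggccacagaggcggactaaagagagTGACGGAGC
Psmc4: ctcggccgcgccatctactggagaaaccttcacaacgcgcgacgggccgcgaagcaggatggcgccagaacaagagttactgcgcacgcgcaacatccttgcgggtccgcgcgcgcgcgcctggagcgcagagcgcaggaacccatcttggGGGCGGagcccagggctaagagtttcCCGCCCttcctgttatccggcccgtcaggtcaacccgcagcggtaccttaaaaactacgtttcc

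The capitals in Psmb5 and the last capitals in Psmb6 match the antioxidant response element TGACNNNGC, the sequence bound by the Nfe2l1 and Nfe2l2 family that is known to drive proteasome genes when proteasome activity is short. The other capitals, in Psmb6 and Psmc4, match the GC box GGGCGG. No match to any of the 6 motifs stands in the Psmb10 stretch, which says only that these letters are not in this window. RefSeq windows of 250 bases before to 50 after the start were held for 40 members, and only the 250 bases before the start were searched. The antioxidant response element occurred in 5 of the 40 (12.5%: Psmb5, Psmb6, Psmc6, Psmd12 and Psmd9). It occurred in 11.5% of all genes with a window and in 15.3% of those with at least 50 CPM. The ETS motif CCGGAAG occurred in 12 of the 40, against 7.83% and 19.4% of these genes, and the GC box in 22 (55.0%), against 35.4% and 67.6%. The interferon-stimulated response element GAAANNGAAA occurred in 3 members (7.50%; Psmb3, Psmd4 and Psmd9), against 3.46% and 3.33%. The gamma-activated site TTCNNNGAA occurred in 2 (5.00%; Psmb8 and Psmg1), against 8.13% and 7.44%, and the CCAAT box, CCAAT, in 14 of the 40, against 37.5% and 39.8%. The motifs were chosen with the values of the genes known, a match could overlap one to another motif, and a match is a description of letters and not a bound site.

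Transcripts of the 3 immunoproteasome genes were abundant in every group, and for each of them the mean was highest in control iNK. Psmb8 had 294, 216, 172 and 159.8 CPM in cKO iILC1, 211, 139 and 184 in control iILC1, 182, 148, 172 and 208 in cKO iNK, and 273, 244 and 263 in control iNK. Its 3 control iNK libraries lay above all cKO iNK and all control iILC1 libraries, while the 4 cKO iILC1 libraries spread across both. Psmb9 had 202, 155, 137 and 109 CPM in cKO iILC1, 161, 87.6 and 126 in control iILC1, 161, 162, 167 and 204 in cKO iNK, and 233, 198 and 183 in control iNK. Psmb9 in control iNK overlapped with cKO iNK, whose replicate 4 was high, and lay above control iILC1. Psmb10 had 249, 188, 137 and 109 CPM in cKO iILC1, 183, 113 and 139 in control iILC1, 179, 131, 155 and 177 in cKO iNK, and 222, 203 and 186 in control iNK. The highest Psmb10 value of all libraries was that of cKO iILC1 replicate 1, and control iNK lay just above the highest value of control iILC1 and of cKO iNK.

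The constitutive counterparts were also highest, by their means, in control iNK, and control iILC1 lay below it for each. Psmb5 had 87.9, 76.5, 54.9 and 47.7 CPM in cKO iILC1, 61.1, 51.5 and 62.5 in control iILC1, 68.7, 59.9, 71.7 and 105 in cKO iNK, and 112, 90.7 and 104 in control iNK. Every control iNK library was above every control iILC1 library, while cKO iNK replicate 4 reached the control iNK range. Psmb6 had 168, 121, 83.7 and 81.5 CPM in cKO iILC1, 110.0, 77.1 and 96.9 in control iILC1, 122, 104, 121 and 165 in cKO iNK, and 186, 160.5 and 142 in control iNK. Here too control iILC1 lay below control iNK without overlap, and cKO iILC1 replicate 1 and cKO iNK replicate 4 fell within the control iNK range. Psmb7 had 70.5, 56.0, 35.5 and 35.7 CPM in cKO iILC1, 44.2, 38.2 and 42.9 in control iILC1, 53.7, 44.0, 56.1 and 56.0 in cKO iNK, and 71.4, 67.3 and 76.9 in control iNK. For Psmb7 all 3 control iILC1 and all 4 cKO iNK libraries were below the lowest control iNK library.

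**Figure D2:**
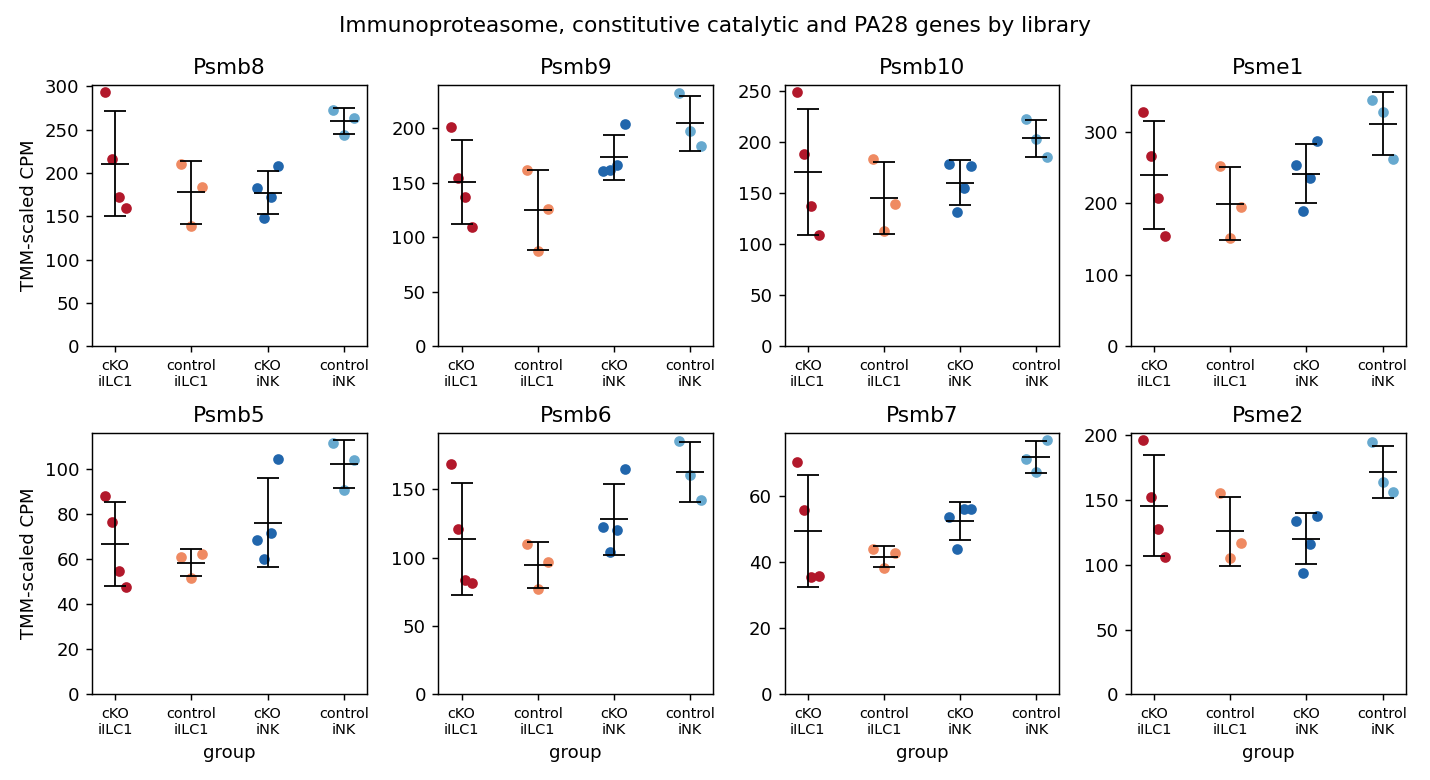
TMM-scaled CPM (y axis, from 0) of the 3 immunoproteasome genes, their 3 constitutive counterparts and the activators Psme1 and Psme2 by group (x axis); each point is a library and bars give the mean and SD (n = 4, 3, 4 and 3). Control iNK has the highest mean in all 8 panels, and control iILC1 lies below it without overlap in each, by less than 1 CPM for Psme2.

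The balance between inducible and constitutive catalytic subunits differed with the cell type and hardly with the genotype. It is given as the log2 ratio of the TPM sum of Psmb8, Psmb9 and Psmb10 to that of Psmb5, Psmb6 and Psmb7 in each library, as a description without a test. The ratio was 0.53, 0.44, 0.61 and 0.44 in cKO iILC1, 0.68, 0.32 and 0.41 in control iILC1, 0.42, 0.33, 0.26 and 0.09 in cKO iNK, and 0.24, 0.30 and 0.18 in control iNK. The iILC1 and iNK libraries did not overlap within either genotype, although their nearest libraries were close (0.44 against 0.42 in cKO, and 0.32 against 0.30 in control). The mean difference between iILC1 and iNK was 0.23 in cKO and 0.23 in control. The mean difference between cKO and control was 0.03 in iILC1 and 0.03 in iNK, which is smaller than the SD within each of the 4 groups (0.06 to 0.19). As a linear ratio, the inducible genes summed to 1.42 ± 0.0782 times the constitutive ones in cKO iILC1, 1.39 ± 0.188 times in control iILC1, 1.21 ± 0.114 times in cKO iNK and 1.18 ± 0.0526 times in control iNK.

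The pairs did not contribute alike. The Psmb8 to Psmb5 ratio averaged 0.01 ± 0.11 (log2, SD) in cKO iILC1 and -0.06 ± 0.18 in control iILC1, against -0.41 ± 0.18 in cKO iNK and -0.30 ± 0.07 in control iNK. The cell types did not overlap in cKO for this pair (-0.15 or more in iILC1 against -0.24 or less in iNK). In control the lowest iILC1 and the highest iNK library both stood at -0.22. The Psmb10 to Psmb7 ratio averaged 1.72 ± 0.14 in cKO iILC1 and 1.71 ± 0.25 in control iILC1, against 1.54 ± 0.12 in cKO iNK and 1.44 ± 0.20 in control iNK, with overlap between the cell types in both genotypes. The Psmb9 to Psmb6 ratio averaged -0.53 ± 0.20 in cKO iILC1 and -0.59 ± 0.18 in control iILC1, against -0.52 ± 0.14 in cKO iNK and -0.64 ± 0.03 in control iNK, and its means differed by 0.04 or less in size between cell types. Psmb9 transcripts were thus below those of Psmb6 per length in all groups, while Psmb10 transcripts were well above those of Psmb7. The level of a pair ratio depends on the annotated exon lengths, which were 3659 bases for Psmb9 and 1872 for Psmb6. In CPM the mean of Psmb9 was above that of Psmb6 in every group (205 against 163 CPM in control iNK). Differences of a pair ratio between groups do not depend on these lengths.

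**Figure D3:**
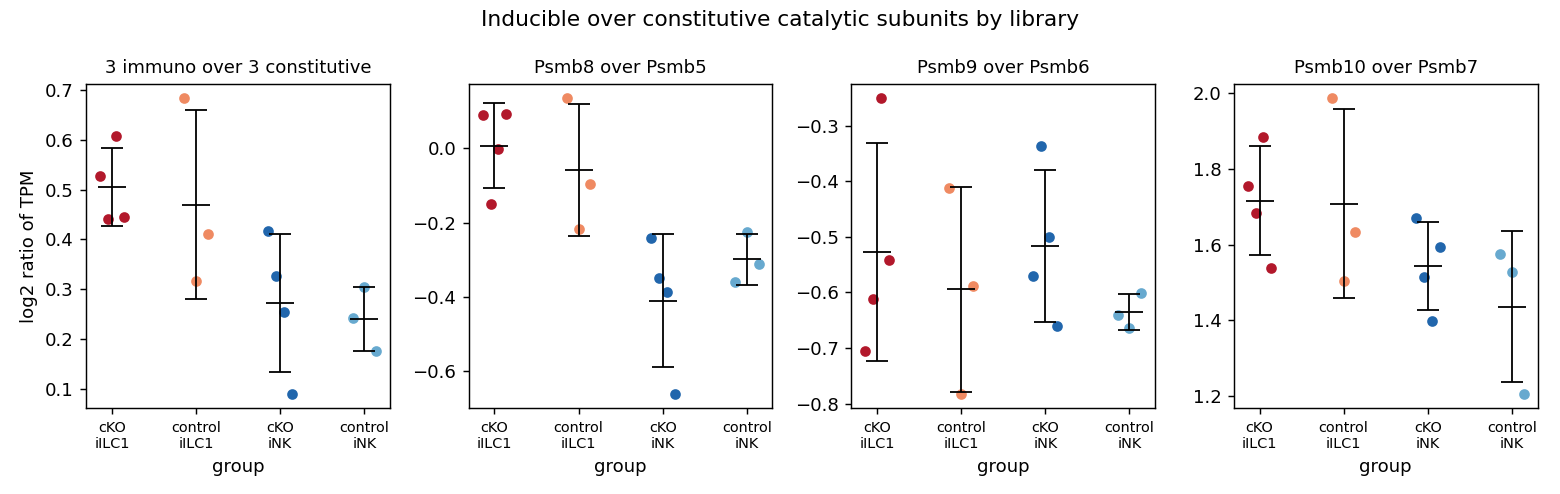
Log2 ratio of TPM (y axis, which does not start at 0) of inducible over constitutive catalytic subunits by group (x axis), for the 3 genes of each kind summed and for the 3 pairs; each point is a library and bars give the mean and SD. Within each genotype the summed ratio is higher in every iILC1 library than in every iNK library (0.44 or more against 0.42 or less in cKO, 0.32 or more against 0.30 or less in control). Control iILC1 replicate 2 lies below 2 cKO iNK libraries, and the Psmb9 over Psmb6 and Psmb10 over Psmb7 panels overlap.

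Between the cell types of control mice, 7 of the 48 members (14.6%) were called lower in iILC1 than in iNK and none higher, where 3.0% of all tested genes were called lower and 0.911% higher. The called genes were the beta subunits Psmb2 and Psmb1, the alpha subunits Psma4 and Psma6, the ATPase Psmc4 and the non-ATPase subunits Psmd7 and Psmd3. All 7 were among the 40 members with at least 50 CPM, and of the 4875 genes at that level 8.47% were called lower. The whole set leaned the same way: 46 of 48 estimates were below 0 (42.6% of all genes), 37 were lower at an unadjusted p below 0.05 (12.2%), and for 39 the control iILC1 libraries all lay below the control iNK libraries (13.0%). Well expressed genes leaned this way in general: of those with at least 50 CPM, 89.7% had estimates below 0, against all 40 such members, and 36.0% were lower at an unadjusted p below 0.05, against 33 of the 40. The median log2 fold change was -0.67 for the members, against 0.16 for all genes. Among genes with at least 50 CPM it was -0.69 for the members (interquartile range -0.80 to -0.55), against -0.40 for all such genes.

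Psmb2, a beta subunit without catalytic activity of its own (chr4:126677630-126709714), had 154, 125, 88.0 and 88.6 CPM in cKO iILC1, 90.7, 86.7 and 90.1 in control iILC1, 126, 103, 137 and 166 in cKO iNK, and 206, 169 and 177 in control iNK. The control iNK libraries were above all 11 others, and control iILC1 was among the lowest. Its log2 fold change was -1.05, SE 0.24, adjusted p = 0.00992, the smallest p among the members. Psmb1, also a beta subunit without catalytic activity (chr17:15475721-15498276), had 192, 137, 103 and 92.3 CPM in cKO iILC1, 144, 88.8 and 113 in control iILC1, 151, 125, 149 and 198 in cKO iNK, and 248, 205 and 196 in control iNK. The control groups did not overlap (log2 fold change -0.91, SE 0.26, adjusted p = 0.0460), whereas cKO iNK replicate 4 reached the control iNK range.

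Psma4, an alpha ring subunit (chr9:54950790-54958030), had 152, 92.2, 68.6 and 72.3 CPM in cKO iILC1, 93.0, 69.6 and 73.6 in control iILC1, 107, 94.0, 113 and 120.2 in cKO iNK, and 155, 152 and 133 in control iNK. Control iILC1 lay below control iNK (log2 fold change -0.90, SE 0.25, adjusted p = 0.0396), and only cKO iILC1 replicate 1 among the other groups reached the control iNK level. Psma6, another alpha subunit (chr12:55384222-55418454), had 188, 152, 114 and 99.4 CPM in cKO iILC1, 143, 98.8 and 108 in control iILC1, 152, 138, 142 and 177 in cKO iNK, and 212, 242 and 179 in control iNK. Its control groups did not overlap either (log2 fold change -0.86, SE 0.24, adjusted p = 0.0419).

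In the 19S regulator, Psmd7 partners the deubiquitinase Psmd14 in the lid (chr8:107580381-107588482), and it had 71.7, 65.1, 36.9 and 54.7 CPM in cKO iILC1, 64.6, 41.5 and 50.9 in control iILC1, 73.6, 54.1, 70.7 and 79.6 in cKO iNK, and 111, 101 and 98.7 in control iNK. Its 3 control iNK libraries were above all others, and the log2 fold change between the control cell types was -0.99, SE 0.24, adjusted p = 0.0173. Psmc4, one of the ATPases that unfold the substrate (chr7:28041707-28050101), had 117, 83.9, 70.3 and 67.5 CPM in cKO iILC1, 80.4, 67.6 and 72.2 in control iILC1, 104, 64.9, 97.5 and 106 in cKO iNK, and 138, 139 and 118 in control iNK. All control iNK values exceeded those of the other groups, closely followed by cKO iILC1 replicate 1 (log2 fold change -0.84, SE 0.24, adjusted p = 0.0417 between control cell types). Psmd3, a structural lid subunit (chr11:98682554-98695979), had 140.5, 115, 100.4 and 82.9 CPM in cKO iILC1, 112, 80.3 and 99.1 in control iILC1, 138, 116, 120.5 and 132 in cKO iNK, and 176, 189 and 143 in control iNK. The control groups did not overlap (log2 fold change -0.80, SE 0.23, adjusted p = 0.0419).

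The classes leaned to different degrees in this comparison. All 14 standard core genes were lower without overlap and below an unadjusted p of 0.05, with a median log2 fold change of -0.78 and 4 calls. The 20 genes of the 19S regulator had a median of -0.67, 16 unadjusted and 3 calls. The 3 immunoproteasome genes had a median of -0.55 and no call, with log2 estimates for Psmb9 at -0.71, SE 0.25, adjusted p = 0.102, Psmb8 at -0.55, SE 0.24, adjusted p = 0.200 and Psmb10 at -0.49, SE 0.26, adjusted p = 0.279. Their libraries nonetheless did not overlap. The 4 activators had a median of -0.55 and the 4 core chaperones of -0.66, with no calls, and the inhibitor Psmf1 had a log2 estimate of -0.17, SE 0.22, adjusted p = 0.665. The differences between classes were not tested.

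The number of calls changed with single libraries and with background reads as a covariate. It was 0 without control iILC1 replicate 2, without control iILC1 replicate 3 or without control iNK replicate 1, 2 without cKO iILC1 replicate 2, cKO iNK replicate 1, cKO iNK replicate 3 or control iNK replicate 2, and 24 without cKO iILC1 replicate 1. The members' median stayed between -0.79 and -0.58. With background reads as a covariate only Psmb2 was called (log2 fold change -0.70, adjusted p = 0.0248, within a range of 0.000348 to 0.0676 over all alternatives) and the median was -0.31, and DESeq2 called 25 members. Background itself averaged 3206 CPM in control iILC1 against 1741 CPM in control iNK. The covariate can therefore take up part of a cell type difference, and the 2 cannot be fully told apart. Over all genes, 246 were called higher and 810 lower with TMM scaling, against 537 and 509 with library size alone, where the median of all genes was 0.49 in place of 0.16. The members' own median was -0.67 with TMM and -0.34 with library size alone. A change of scaling shifts all genes of a comparison by nearly the same amount. The members' median relative to that of all genes (-0.83 and -0.84) therefore cannot show whether the result depends on scaling.

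**Figure D4:**
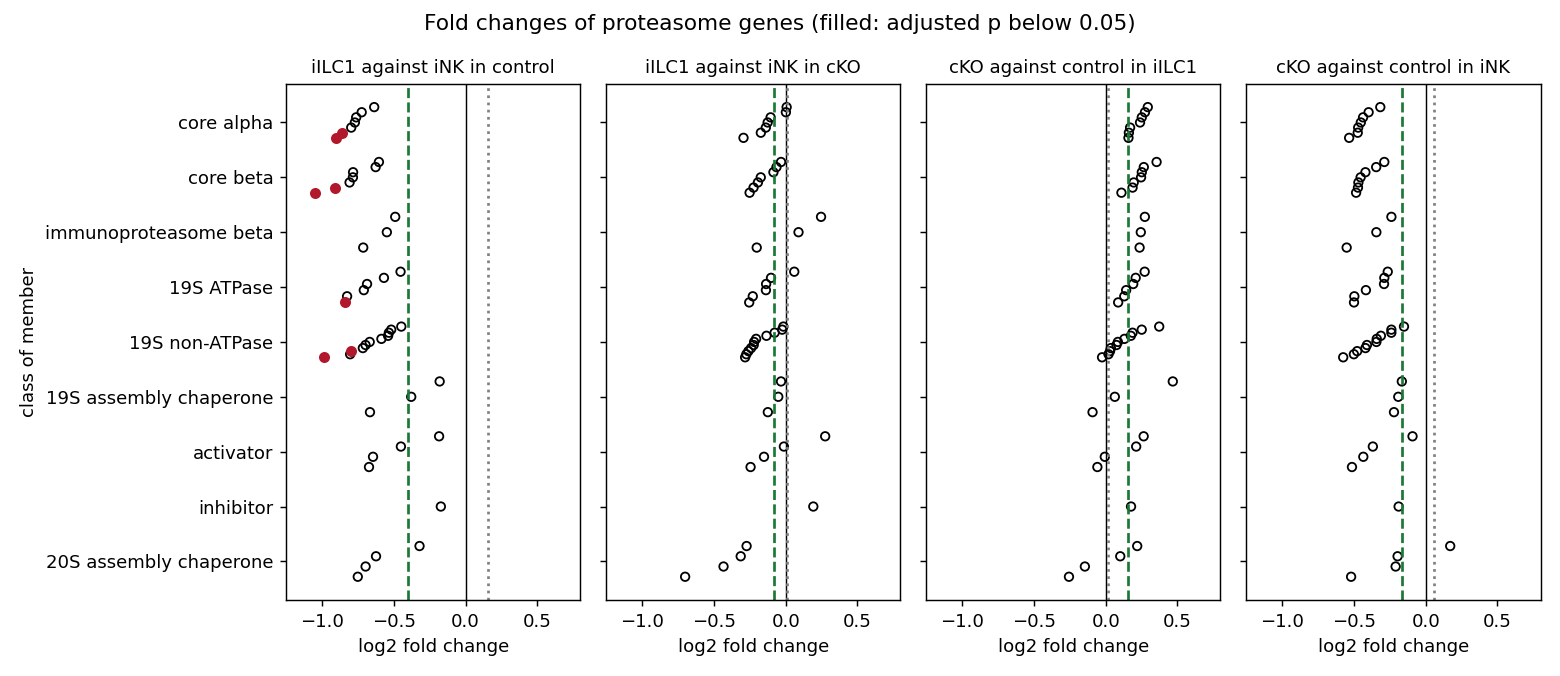
Log2 fold changes (x axis) of 46 members by class (y axis) in the 4 comparisons between groups; each circle is a gene, filled where the adjusted p is below 0.05, the dotted line is the median of all 26990 genes and the dashed line that of genes with at least 50 CPM. The 7 filled circles all stand in the comparison of iILC1 with iNK in control, between -1.05 and -0.80.

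Between the cell types of cKO mice the difference was small. None of the 48 members was called by edgeR, where 1.74% of all genes were called higher and 1.68% lower, and DESeq2 called none either. The members' median log2 fold change was -0.14, against 0.01 for all genes, with 40 of 48 estimates below 0 (49.1% of all genes, and 64.1% of genes with at least 50 CPM, against 33 of the 40 such members). In 1 member the estimate was lower with an unadjusted p below 0.05 (5.04% of all genes), and the same member was the only one without overlap (3.08%). That member was Psmg4, a chaperone of core assembly (chr13:34162964-34178172), with 7.63, 6.49, 5.57 and 5.47 CPM in cKO iILC1, 7.31, 5.17 and 8.43 in control iILC1, 9.02, 8.74, 8.71 and 14.3 in cKO iNK, and 15.6, 9.82 and 9.76 in control iNK. The cKO iILC1 values all lay below the cKO iNK values (log2 fold change -0.70, SE 0.29, adjusted p = 0.312), and control iNK replicate 1 was the highest. The next smallest p belonged to its fellow chaperone Psmg1 (chr16:95979933-95990960), with 15.3, 12.9, 8.91 and 13.9 CPM in cKO iILC1, 21.4, 13.1 and 11.7 in control iILC1, 18.8, 14.6, 13.6 and 21.7 in cKO iNK, and 24.7, 28.2 and 21.3 in control iNK. The cKO groups overlapped (log2 fold change -0.43, SE 0.25, adjusted p = 0.652). The immunoproteasome genes Psmb8 (log2 fold change 0.25, SE 0.21, adjusted p = 0.886) and Psmb10 (log2 fold change 0.09, SE 0.22, adjusted p = 0.997) had estimates above 0 and Psmb9 (log2 fold change -0.20, SE 0.21, adjusted p = 0.934) below it. Leaving out cKO iILC1 replicate 1 raised the count below an unadjusted p of 0.05 to 13, still without a call, and gave a median of -0.29.

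In iNK the question was what loss of Il15 in blood cells does to these genes. None of the 48 members was called in cKO iNK against control iNK, where 0.156% of all genes were called higher and 0.252% lower. The estimates nonetheless leaned downwards: 45 of 48 were below 0 (44.9% of all genes), 13 were lower at an unadjusted p below 0.05 (3.95%), and the cKO and control libraries did not overlap for 22 (4.75%). Of genes with at least 50 CPM, 78.7% were below 0, as were all 40 such members, and 9.29% were lower at an unadjusted p below 0.05, against 13 of the 40. The members' median was -0.36, against 0.06 for all genes, and at 50 CPM or more it was -0.41 for the members and -0.16 for all genes at that level. This comparison and that of the control cell types share the 3 control iNK libraries, so their values are not independent.

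The smallest p in iNK belonged to Psmd7 (log2 fold change -0.57, SE 0.22, adjusted p = 0.456), whose values are given above. Psmd14, the deubiquitinase that removes ubiquitin chains at the entrance of the core (chr2:61711694-61800376), came second with 126, 103, 83.8 and 86.9 CPM in cKO iILC1, 107, 92.2 and 106 in control iILC1, 119, 108, 111 and 134 in cKO iNK, and 177, 166 and 158 in control iNK. The cKO iNK libraries all lay below the control iNK libraries (log2 fold change -0.50, SE 0.20, adjusted p = 0.471), and control iNK was above every other library. Among the immunoproteasome genes Psmb8 had a log2 estimate of -0.55, SE 0.22, adjusted p = 0.505, Psmb10 at -0.34, SE 0.24, adjusted p = 0.764 and Psmb9 at -0.24, SE 0.23, adjusted p = 0.849. The standard core had a median of -0.45, the 19S regulator of -0.33, the immunoproteasome genes of -0.34, the activators of -0.40 and the core chaperones of -0.20.

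The count below an unadjusted p of 0.05 in iNK was 0 without control iNK replicate 1, 3 without cKO iNK replicate 2, 6 without cKO iNK replicate 3, 8 without control iNK replicate 2 or control iILC1 replicate 3, and 22 without cKO iILC1 replicate 1 or with DESeq2, which also called none. Over all genes, 42 were called higher and 68 lower with TMM, against 106 and 70 with library size alone. With library size alone the median was 0.24 for all genes and -0.17 for the members, against -0.36 for the members with TMM. Relative to the median of all genes the members' median was -0.41 under both scalings, which shift all genes nearly alike and so can hardly change it.

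In iILC1 no member was called between cKO and control, and none had an unadjusted p below 0.05, with edgeR or with DESeq2; of all genes, 2.63% were higher and 1.89% lower at that level. Only 0.0222% of all genes were called higher and 0.0259% lower in this comparison. The members' median was 0.18, with 41 of 48 estimates above 0 (51.6% of all genes). Of genes with at least 50 CPM, 82.3% were above 0, against 37 of the 40 such members, and the median was 0.19 for those members and 0.16 for all such genes. The smallest p belonged to Psmd10, a chaperone of the regulator's base also known as gankyrin (chrX:140948429-140956728), with 44.5, 32.2, 25.1 and 27.8 CPM in cKO iILC1, 29.5, 16.3 and 24.9 in control iILC1, 31.2, 24.7, 35.9 and 40.7 in cKO iNK, and 33.9, 39.1 and 38.7 in control iNK. Its cKO and control iILC1 libraries overlapped (log2 fold change 0.47, SE 0.25, adjusted p = 0.979). Psmd4, a ubiquitin receptor of the regulator (chr3:95032694-95042614), had 171, 137, 94.8 and 91.0 CPM in cKO iILC1, 117, 76.7 and 92.9 in control iILC1, 134, 108, 118 and 138 in cKO iNK, and 150.4, 152 and 114 in control iNK. It had a log2 estimate of 0.37, SE 0.23, adjusted p = 0.979, with overlap. The members' median was 0.00 without cKO iILC1 replicate 1 and 0.07 without control iILC1 replicate 2.

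The test of the difference between the genotype effects, coded as the effect in iILC1 minus that in iNK, called none of the 48 members, with 0.0222% of all genes called higher and 0.0556% lower. Of the members, 47 had estimates above 0 (48.3% of all genes) and 12 were higher at an unadjusted p below 0.05 (3.42%), and DESeq2 called none, with 18 at an unadjusted p below 0.05. Of genes with at least 50 CPM, 90.4% were above 0, as were all 40 such members, and 8.0% were higher at an unadjusted p below 0.05, against 12 of the 40. The median was 0.55, against -0.03 for all genes and 0.34 for genes with at least 50 CPM. Psmb2 had the smallest p (difference of log2 fold changes 0.82, SE 0.31, adjusted p = 0.705), followed by Psmb8 (difference 0.80, SE 0.32, adjusted p = 0.705). The count of 12 was 0 without control iNK replicate 1 and cKO iILC1 replicate 1 together. It was 1 without control iILC1 replicate 2, 2 without cKO iILC1 replicate 1 or control iILC1 replicate 3, 3 without cKO iNK replicate 2 or control iNK replicate 1, 6 without cKO iILC1 replicate 2 and 7 without control iNK replicate 2. The count was 20, 21 and 23 without cKO iILC1 replicate 3, control iILC1 replicate 1 and cKO iILC1 replicate 4. With background reads as a covariate the median was 0.23.

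The libraries' proteasome totals moved with the background, but the totals were TMM-scaled and the background was not. The TMM factors ran from 0.801 in control iNK replicate 1 to 1.24 in control iILC1 replicate 2, and a low factor raises the scaled total. The part of the scaling in this relation was not tested. The 48 members summed to 6883, 5216, 4187 and 3921 CPM in cKO iILC1, 5239, 3763 and 4445 CPM in control iILC1, 5676, 4444, 5372 and 6271 CPM in cKO iNK, and 7523, 7251 and 6545 CPM in control iNK. Background reads in the same libraries were 1353, 2734, 3593 and 3176 CPM in cKO iILC1, 2230.1, 3981 and 3407 CPM in control iILC1, 1677, 3187, 2481 and 1738 CPM in cKO iNK, and 1179, 1405 and 2639.9 CPM in control iNK. In 3 of the 4 groups the library with the highest proteasome total had the lowest background, and in cKO iNK the 2 highest totals came with the 2 lowest backgrounds. With the background as a covariate the members' median was -0.31 for the control cell types, -0.06 for the cKO cell types, -0.16 for cKO against control in iNK, 0.04 for cKO against control in iILC1 and 0.23 for the difference of genotype effects.

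**Figure D5:**
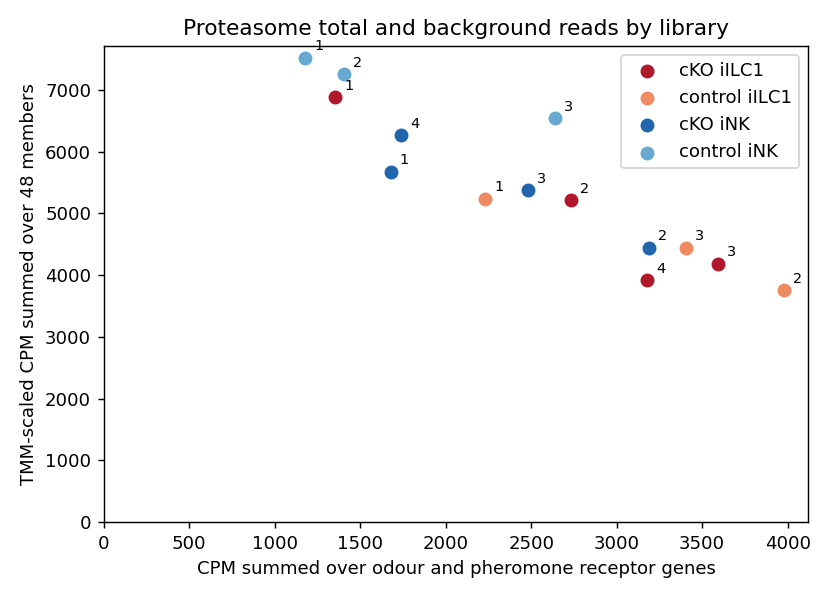
TMM-scaled CPM summed over the 48 members (y axis, from 0) against CPM without TMM factors summed over 1465 odour and pheromone receptor genes (x axis, from 0). Each of the 14 libraries is 1 point with its replicate number. The highest total, 7523 CPM in control iNK replicate 1, stands at a background of 1179 CPM and the lowest, 3763 CPM in control iILC1 replicate 2, at 3981 CPM, and cKO iILC1 replicate 1 lies beside the control iNK libraries.

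Among the activators, Psme1 and Psme2 form the interferon-inducible ring that opens the core from its end, Psme3 forms a related ring in the nucleus and Psme4 is a large nuclear activator. Psme1 (chr14:55578123-55581529) had 328, 267, 208 and 154 CPM in cKO iILC1, 252, 151 and 195 in control iILC1, 253, 189, 235 and 288 in cKO iNK, and 345, 328 and 262 in control iNK. Control iILC1 was below control iNK without overlap, but the difference did not pass the test (log2 fold change -0.65, SE 0.26, adjusted p = 0.166). Psme2 (chr14:55587441-55591113), which lies close to Psme1 on chromosome 14, had 197, 152, 127 and 106 CPM in cKO iILC1, 156, 105 and 117 in control iILC1, 134, 93.9, 116 and 138 in cKO iNK, and 195, 164 and 156 in control iNK. All 4 cKO iNK libraries were below the control iNK libraries (log2 fold change -0.51, SE 0.22, adjusted p = 0.561). The log2 ratio of Psme1 to Psme2 TPM averaged 0.37 ± 0.11 in cKO iILC1 and 0.33 ± 0.12 in control iILC1, against 0.68 ± 0.06 in cKO iNK and 0.53 ± 0.13 in control iNK. The cell types did not overlap within either genotype, but in control the nearest libraries nearly met (0.415 in iILC1 and 0.422 in iNK). Psme3 had a log2 estimate of -0.67, SE 0.23, adjusted p = 0.0991 between the control cell types. Psme4 averaged 82.8 ± 11.1 CPM in cKO iILC1, 86.3 ± 7.28 in control iILC1, 92.0 ± 11.9 in cKO iNK and 98.0 ± 3.06 in control iNK, the narrowest range of group means among the activators. A copy of Psme2 exists in the mouse genome (Psme2b), and pseudogenes of several core genes do, so reads of near-identical copies are uncertain.

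The tissue-restricted core genes were at the level of background. Psma8, an alpha subunit of the testis, had 1.94, 0.980, 1.91 and 1.27 CPM in cKO iILC1, 0.877, 3.78 and 1.10 in control iILC1, 0.612, 4.16, 1.43 and 2.21 in cKO iNK, and 1.87, 0.982 and 1.44 in control iNK. These were 3 to 30 reads per library. Psmb11, the catalytic beta subunit of the thymic cortex, had 1.57, 1.35, 1.59 and 2.42 CPM in cKO iILC1, 0.585, 2.39 and 0.366 in control iILC1, 1.53, 1.39, 1.82 and 0.511 in cKO iNK, and 0.625, 1.31 and 1.44 in control iNK. These were 2 to 19 reads. Per kilobase, Psma8 averaged 0.900 CPM in cKO iILC1, 1.13 in control iILC1, 1.24 in cKO iNK and 0.846 in control iNK, where the 95th percentile of the silent receptor genes was 5.02, 4.85, 4.61 and 3.64 CPM per kilobase in those groups. Psmb11 averaged 0.408, 0.262, 0.309 and 0.265 CPM per kilobase in the same order, below the silent median of 0.944, 1.23, 0.757 and 0.753. No level of expression can be read from these values.

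Neither the inhibitor nor the chaperones of the regulator's base held a called gene. Psmf1, which binds the core and inhibits it in the test tube, averaged 74.8 ± 21.4 CPM in cKO iILC1, 66.2 ± 2.95 in control iILC1, 65.4 ± 5.95 in cKO iNK and 74.6 ± 6.89 in control iNK. Psmd5 and Psmd9, chaperones of the regulator's base, had log2 estimates of -0.38, SE 0.23, adjusted p = 0.337 and -0.18, SE 0.24, adjusted p = 0.671 between the control cell types. Of the Psmd9 exons, 25.5% of the length overlaps a non-coding gene on the other strand, so its count is uncertain. In the same annotation 14 overlaps with other genes touch the exons of 13 members, and only those of Psmd9 and Psmb5 (12.5%, a microRNA gene on the same strand) exceed 10% of the member's exon length.

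Genes that work with the proteasome outside the 48 were read from a list of 18, which held the core maturation factor Pomp, the small regulator subunit Sem1, ubiquitin receptors and deubiquitinases, and the transcription factors Nfe2l1 and Nfe2l2. Between the control cell types 1 of the 18 was called lower in iILC1, and none was called in the other comparisons. Of all genes 3.0% were called lower between the control cell types, and 8.47% of those with at least 50 CPM. The called gene of the list was Sem1, which averaged 31.0 ± 13.9 CPM in cKO iILC1, 19.9 ± 4.03 in control iILC1, 33.5 ± 17.0 in cKO iNK and 45.8 ± 12.3 in control iNK (log2 fold change -1.20, SE 0.35, adjusted p = 0.0471). All 18 estimates were below 0 in that comparison (median -0.48), and 16 of 18 were below 0 in cKO iNK against control iNK (median -0.25). Of all genes with at least 50 CPM, 89.7% (median -0.40) and 78.7% (median -0.16) were below 0 in these comparisons.

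Partners of the immunoproteasome in class I presentation and interferon signalling were read from a list of 12. Irf8, a transcription factor of the interferon regulatory family, was called lower in iILC1 than in iNK in both genotypes. It averaged 131 ± 37.2 CPM in cKO iILC1 and 117 ± 17.6 CPM in control iILC1, against 238 ± 41.6 CPM in cKO iNK and 295 ± 78.8 CPM in control iNK (log2 fold change -0.86, adjusted p = 0.0202 in cKO; -1.34, adjusted p = 0.00200 in control). Nlrc5, the transactivator of MHC class I genes and of Psmb9, was called higher in iILC1 than in iNK of cKO mice (log2 fold change 0.97, SE 0.24, adjusted p = 0.0130). It averaged 355 ± 71.3 CPM in cKO iILC1 and 354 ± 59.9 CPM in control iILC1, against 181 ± 61.7 CPM in cKO iNK and 335 ± 74.9 CPM in control iNK, with the lowest mean in cKO iNK. The difference between cKO and control iNK did not pass the test for Nlrc5 (log2 fold change -0.89, adjusted p = 0.158). In cKO iNK against control iNK all 12 estimates were below 0, where 78.7% of genes with at least 50 CPM were, and none was called. Between the cell types of cKO mice only 1 of the 12 was below 0 (median 0.42). There 64.1% of genes with at least 50 CPM were below 0, and the members' median was -0.14.

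Genes of cell division were read from a list of 10. Of these, all 10 were called lower in iILC1 than in iNK of control mice (median -1.59), where 3.0% of all genes and 8.47% of those with at least 50 CPM were. In cKO mice 6 were called lower, where 1.68% of all genes were. In cKO iNK 4 were called lower than in control iNK (median -0.92), where 0.252% of all genes were. None was called in iILC1 between genotypes (median -0.29, against 0.18 for the members), where 0.0259% of all genes were called lower. Mki67, a marker of dividing cells, averaged 48.6 ± 15.3 CPM in cKO iILC1 and 74.9 ± 35.8 CPM in control iILC1, against 139 ± 30.7 CPM in cKO iNK and 323 ± 30.7 CPM in control iNK. Mki67 was thus highest in control iNK, as most proteasome genes were, and the part of division in the proteasome values was not tested.

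Several sums of genes listed as markers of other cells differed with the genotype or the cell type. A list of 12 B lineage genes, all of them detected, summed to 785 to 1253 CPM in cKO iILC1 and 471 to 707 CPM in control iILC1, and 846 to 1341 CPM in cKO iNK and 411 to 635 CPM in control iNK. In iILC1 the B lineage difference lay in Cd74 (means of 326 CPM in cKO iILC1 and 116 CPM in control iILC1), H2-Aa, H2-Ab1 and Ighm, and not in Cd79a (3.91 and 3.23 CPM). In iNK Cd79a averaged 36.6 CPM in cKO and 3.02 CPM in control. A list of 7 erythroid genes, all detected, summed to 9.67 to 251 CPM in cKO iILC1 and 27.2 to 182 CPM in control iILC1, and 76.7 to 589.5 CPM in cKO iNK and 5.89 to 45.8 CPM in control iNK. A list of 9 myeloid genes, all detected, summed to 182 to 399 CPM in cKO iILC1 and 218 to 309 CPM in control iILC1, against 463 to 609.96 CPM in cKO iNK and 345 to 713 CPM in control iNK. Itgax carried most of that sum, with means of 135 and 194 CPM in cKO and control iILC1 against 401 and 418 CPM in cKO and control iNK, while Csf1r ran the other way, with 17.1 and 20.5 CPM against 10.2 and 9.51 CPM. A list of 6 T cell genes, all detected, summed to 81.9 to 136 CPM in cKO iILC1 and 156 to 291 CPM in control iILC1, and 60.6 to 81.9 CPM in cKO iNK and 72.2 to 94.4 CPM in control iNK. The T cell sums of the iILC1 groups did not overlap, although the sort gate excluded CD3+ cells. A list of 5 stroma genes, all detected, summed to 217 to 282 CPM in cKO iILC1 and 160.5 to 217 CPM in control iILC1, and 181 to 227 CPM in cKO iNK and 126 to 170.3 CPM in control iNK, most of it Pecam1. B cells also express immunoproteasome genes. Whether these sums came from other cells, and the part of any such cells in the proteasome values, was not tested.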

How the data were processed

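Bulk RNA-seq was measured in 14 libraries made with SMART-Seq v4 and Nextera XT, kits that do not mark strand. The deposited table holds raw whole-number counts per gene, made by the authors with Trimmomatic 0.33, HISAT2 2.1.0 and featureCounts of Subread 1.6.5 on mm10, per the submitters' processing notes. The annotation release and the counting of multiply mapped reads are not given in the sources used here. Of 46078 identifiers, 97.97% matched a symbol in GENCODE M21.

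Counts were tested with edgeR 4.0.16 in R 4.3.3 (TMM, genes kept by filterByExpr at minima of 10 per library and 15 in total, 4 group means, quasi-likelihood F test, Benjamini-Hochberg adjustment over all 26990 genes, threshold 0.05); every adjusted p here comes from that test unless DESeq2 (1.42.0) is named. The common biological coefficient of variation was 30.0% with 10 residual degrees of freedom. Each SE was computed from the F statistic of its fold change. CPM are TMM-scaled, except those of the background reads, which were scaled to total counts alone. TPM were computed from the counts and the exon lengths of the table. The script was tested on simulated counts. Replicates differed beyond sampling noise in every pair (chi-square over degrees of freedom from 4.97 to 27.1), and none was treated as a copy. Total counts of 3512796 to 12572326 per library limit the precision of the low members.

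Values in every library are given for the catalytic pairs, Psme1, Psme2, the tissue-restricted genes, every called member and the 2 members with the smallest p in each comparison. The members, lists, naming rule and tests were chosen with earlier results of these data known. Alternatives covered scaling, tool, filter, the groups fitted, background reads, replicate blocks and leaving out libraries. Of the listed genes outside the members, 2 are not reported here.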

Additional observations from a re-analysis of the deposited data

Results flagged for a closer look

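In the 2 cKO groups, which hold 4 libraries each, 106 sets of 4 values were examined (the 48 members, 4 ratios and the summed TPM in each group), and 5 (4.72%) held a library far from the other 3, where chance alone gives about 1 in 20. In cKO iILC1, replicate 1 was high for Psme3, with 238 CPM against 155 to 159 CPM in the other libraries of that group, and for Psmf1, with 107 CPM against 60.0 to 67.2 CPM. In cKO iNK, replicate 4 was high for Psmb9, with 204 CPM against 161 to 167 CPM in the others, and for Psmg4, with 14.3 CPM against 8.71 to 9.02 CPM. Replicate 2 of cKO iNK was low for Psmf1, with 56.6 CPM against 67.5 to 69.0 CPM. Groups of 3 libraries were not examined this way.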

How the results depend on the processing

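The count of members called lower in iILC1 than in iNK of control mice, 7 in the report, was 1 with background reads as a covariate, 11 without a filter on low counts, 21 with a mean of at least 5 CPM, 22 with only the groups compared and 25 with DESeq2. Leaving out 1 library at a time gave 0 to 24. The median of the members in that comparison was -0.31 with the covariate and -0.34 with library size alone, and the median of the difference of genotype effects was 0.23 with the covariate. No direction turned and the other comparisons called no member under any alternative run, except that the median in iILC1 was at 0.00 without cKO iILC1 replicate 1. The causes were not tested. The log2 difference of the inducible to constitutive ratio between cell types was 0.12 to 0.31 in control and 0.17 to 0.28 in cKO when libraries were left out, and that between genotypes, at 0.03 in both cell types, crossed 0. Of single genes under all alternatives, 818 values kept direction and side of the threshold, 24 passed it and 49 no longer did.

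Over all genes, the number called was 110 in iNK between genotypes (63 to 230 leaving out libraries, 116 to 444 otherwise), 13 in iILC1 (4 to 22, and 12 to 59), 1056 between control cell types (394 to 2050, and 921 to 2212), 923 between cKO cell types (713 to 1094, and 889 to 1754) and 21 for the difference (10 to 33, and 15 to 56).

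Deviations of libraries of the same replicate number correlated at -0.09 to 0.39, and at 0.07 to 0.39 for replicate 1. Replicate 1 also had the lowest background in each group. Differently numbered libraries were not compared in this way, so these values cannot show whether the numbers are pairs. The main fit did not take the numbers as pairs. With a replicate block by number the count of 7 was 23, and with a block by genotype and number 15; the block moved no other member count from 0. Members under 10 CPM, such as Psma8 and Psmb11, are limited by depth.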
